A study of Homo sapiens with 4 samples.

Results

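MHC class I antigen presentation was followed through 9 genes of the 60671 listed, namely HLA-B, HLA-C, HLA-E, B2M, TAP1, TAP2, TAPBP, NLRC5 and ERAP1. They were taken by symbol, and each symbol had a single Ensembl identifier in both deposited tables. RNA-seq covered 22RV1 and PC3, both established human prostate carcinoma lines, each transduced with lentivirus carrying a pLKO.1 shRNA against DDX52 (shDDX52) or a control sequence (shCON) and selected with puromycin as stable transformants. Each of the 4 conditions had 1 library, so the differences below have no replicate check and no p-value. A single shRNA sequence targeted DDX52, so its other effects cannot be told apart from those of DDX52 loss. TPM is a length-corrected transcript abundance, by definition scaled to a fixed library total. The deposited columns summed to between 984448 and 990860 TPM, so their totals were close but not equal. TPM keeps no sequencing depth, so the precision of each value is unknown.

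MHC class I molecules display peptides from inside the cell to CD8+ T cells. The proteasome cuts proteins into peptides, the TAP transporter carries them into the endoplasmic reticulum, tapasin holds the empty class I molecule at the transporter, and aminopeptidases trim the peptides to fit. The finished complex is a heavy chain bound to beta-2-microglobulin and a peptide. The genes respond to interferons and to the coactivator NLRC5, and many tumors carry low levels of them.

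HLA-B, HLA-C and HLA-E encode heavy chains and lie on chromosome 6, where GENCODE 29 on GRCh38 places them at 31269491 to 31357188, 31268749 to 31272130 and 30489467 to 30494205. TAP2 (32821833 to 32838780), TAP1 (32845209 to 32853978) and TAPBP (33299694 to 33314387), the last encoding tapasin, lie on the same chromosome. B2M, the gene of beta-2-microglobulin, lies on chromosome 15 from 44711487 to 44718877, NLRC5 on chromosome 16 from 56989485 to 57083531, and ERAP1, the endoplasmic reticulum aminopeptidase, on chromosome 5 from 96760810 to 96808100. The submitters' processing notes name hg19, so these positions describe the annotation and not the authors' mapping.

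The upstream stretches of 5 members are shown because class I genes are known to share control elements there, and the members are compared below for whether they moved together. Each is a RefSeq reference sequence on GRCh38.p14, read 5′ to 3′ on the gene's strand, and does not show the alleles of these cell lines. HLA-B is chr6:31357221-31357366, HLA-C chr6:31272134-31272294, TAP1 chr6:32853813-32853954 and TAPBP chr6:33314079-33314108, all on the minus strand, and B2M is chr15:44711363-44711482 on the plus strand. Capitals mark matches, on either strand, to CCAAT (the Y box), TGACG (in the X2 box), GAAANNGAA or GAANNGAAA (forms of the interferon-stimulated response element core) and GGGGATTCC (a kappa B site).
HLA-B: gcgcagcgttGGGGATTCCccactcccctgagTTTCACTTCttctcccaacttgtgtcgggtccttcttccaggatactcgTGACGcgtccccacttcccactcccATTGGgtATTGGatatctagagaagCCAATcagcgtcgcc
HLA-C: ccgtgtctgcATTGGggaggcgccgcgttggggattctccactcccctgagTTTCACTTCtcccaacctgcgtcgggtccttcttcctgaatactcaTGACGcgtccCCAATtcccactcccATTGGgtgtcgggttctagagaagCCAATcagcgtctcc
B2M: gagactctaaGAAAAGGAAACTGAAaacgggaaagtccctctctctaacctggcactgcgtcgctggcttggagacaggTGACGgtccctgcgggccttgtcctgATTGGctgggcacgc
TAP1: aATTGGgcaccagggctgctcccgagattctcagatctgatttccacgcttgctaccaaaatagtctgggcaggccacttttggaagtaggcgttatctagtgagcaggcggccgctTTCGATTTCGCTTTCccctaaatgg
TAPBP: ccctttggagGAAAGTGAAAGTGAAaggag

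Promoter windows of 300 bases, from 250 before to 50 after the start site, were found for 7 of the 9 members, as 9 windows. HLA-E and NLRC5 had none. HLA-B, HLA-C and B2M each held a TGACG match with CCAAT matches nearer to the start site: TGACG began at −106, −105 and −75 relative to it. TAP2 held TGACG at −35 and no CCAAT. The GGGGATTCC match was found in HLA-B among the member windows, beginning at −177, and in 0.285% of the 35116 windows of all genes. The forms GAAANNGAA and GAANNGAAA can overlap and were in 8.11% and 7.66% of all windows. TAP1, TAPBP and B2M each held 2 overlapping GAAANNGAA matches. CCAAT was in 34.6% and TGACG in 24.6% of all windows, so single matches of these are common. A match describes the letters and is no evidence of a bound factor.

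**Figure D1:**
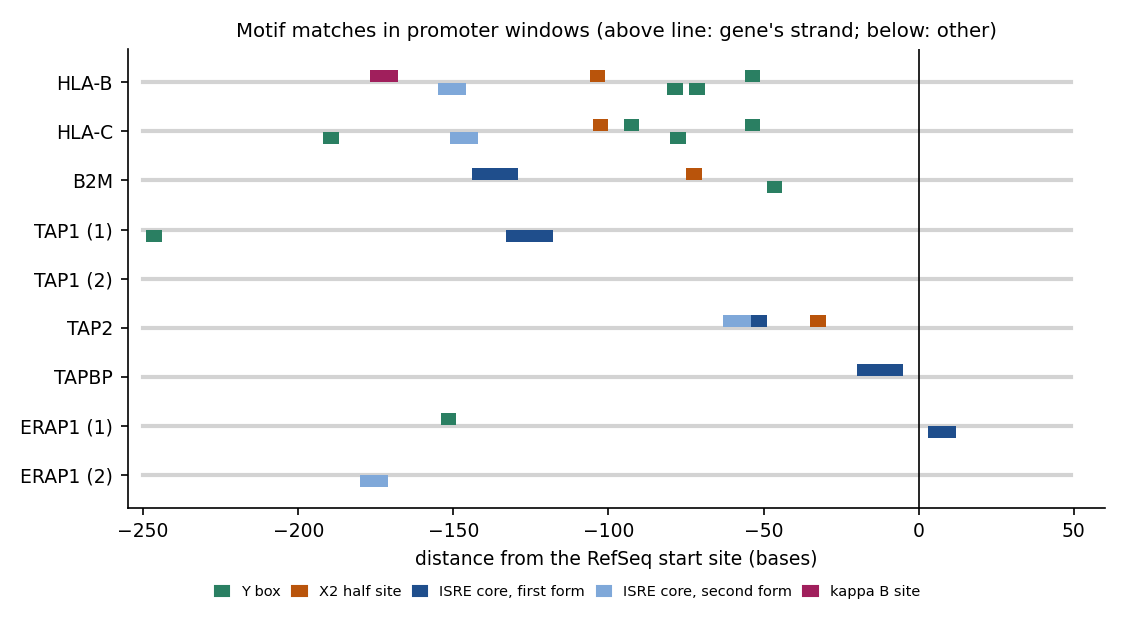
Motif matches in the 9 RefSeq promoter windows of 7 members, drawn by distance in bases from the start site, with matches on the gene's strand above each line and on the other strand below. HLA-B, HLA-C and B2M show an X2 match followed by Y boxes, HLA-B alone among these windows has the kappa B site, and TAP1 and ERAP1 have a second start site each.

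DDX52, the gene targeted, stood at 1.20 TPM against 4.88 TPM in 22RV1 (24.6% of control) and at 2.07 TPM against 9.20 TPM in PC3 (22.5%). Epithelial keratins KRT8 and KRT18 lay between 488 and 1492 TPM in all 4 libraries. KLK2, a prostate luminal gene, was 32.6 and 23.1 TPM in the 22RV1 libraries and listed at 0 in both PC3 libraries. Of 10 leukocyte markers, 2 reached 1 TPM in each library, and the list summed to 11.6 and 4.66 TPM in 22RV1 and 46.4 and 37.8 TPM in PC3, shCON first. CD68, a lysosomal protein, held most of that sum in the shCON libraries (8.82 and 38.4 TPM), and the defining marker PTPRC was 0, 0, 0.16 and 0.39 TPM. The 8 endothelial and fibroblast markers summed to between 5.34 and 14.6 TPM. In these markers, CD68 and DCN in 22RV1 and CD14 and PECAM1 in PC3 had at least a 2-fold lower value with shDDX52. Of all genes 2.86% in 22RV1 and 3.44% in PC3 were lower by that much. On TPM + 1, the scale used below, none of these markers was 2-fold higher. Without it, CDH5 went from 0.61 to 1.98 TPM in PC3, and COL1A1 from 2.81 to 4.77 TPM in 22RV1. DCN went from 1.87 to 0.28 TPM, CD14 from 7.22 to 1.29 TPM and PECAM1 from 5.03 to 0.85 TPM, and CD68 was 2.40 TPM in 22RV1 shDDX52. Their part in the class I values was not tested.

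B2M was the most abundant member in every library, at 248 TPM in 22RV1 shCON, 157 TPM in 22RV1 shDDX52, 738 TPM in PC3 shCON and 703 TPM in PC3 shDDX52. HLA-C was the second in every library, with 71.3, 66.7, 277 and 338 TPM in the same order of libraries. HLA-E, a heavy chain known as the ligand of the NKG2A receptor of natural killer cells, was 42.0 and 33.7 TPM in 22RV1 and 89.2 and 112 TPM in PC3. HLA-B was 14.6 and 14.3 TPM in 22RV1 and 71.7 and 126 TPM in PC3, so it was below HLA-E in 3 libraries and above it in PC3 shDDX52. The neighbours in this order cannot be called different, since no spread between replicates was measured. In a bulk library, fewer expressing cells and less RNA per cell cannot be told apart.

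TAP1 and TAP2 encode the subunits of the peptide transporter. TAP1 was 17.1 and 20.6 TPM in 22RV1 and 22.1 and 31.2 TPM in PC3, the narrowest ratio of highest to lowest among the 9 genes. TAP2 was 17.3 and 11.9 TPM in 22RV1 and 50.3 and 86.5 TPM in PC3. The gene of tapasin, TAPBP, was 10.7 and 11.97 TPM in 22RV1 and 46.7 and 73.4 TPM in PC3. ERAP1 was 1.79 and 1.31 TPM in 22RV1 and 9.67 and 14.1 TPM in PC3. NLRC5, the class I coactivator, was the lowest member throughout, at 0.60 and 0.08 TPM in 22RV1 and 1.74 and 1.95 TPM in PC3. Among genes listed above 0, B2M lay at percentile 95.8 or higher in each library, whereas NLRC5 lay between percentiles 9.26 and 46.0.

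**Figure D2:**
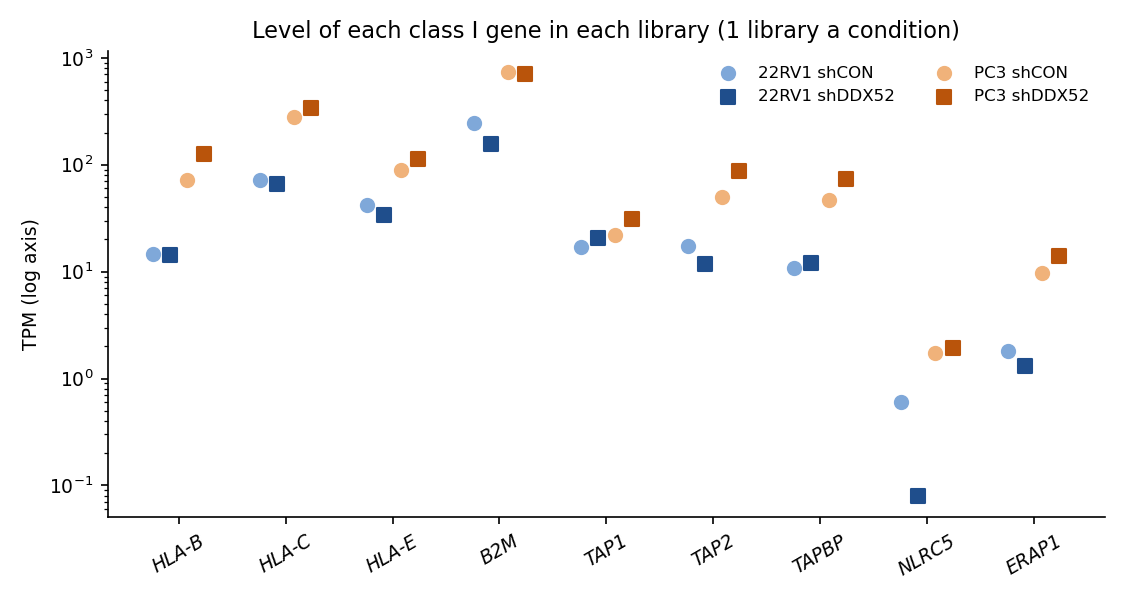
TPM of the 9 class I genes on a log axis in the 4 libraries, with 1 point for each library (circles shCON, squares shDDX52). Both PC3 points lie above both 22RV1 points for each gene, from NLRC5 at 0.08 to 1.95 TPM up to B2M at 157 to 738 TPM.

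The first comparison was between the control libraries of the cell lines. Differences are log2 ratios of TPM + 1, taken where a gene had 1 TPM or more in one or both of the libraries compared. A gene that reached 1 TPM in only 1 of them passed through that library, so its direction was fixed by the filter. The TPM of the cell lines came from separate tables, each made by the authors. All 9 members were higher in PC3 shCON than in 22RV1 shCON, where 47.6% of all 15727 genes were higher. At least 2-fold higher were 7 of the 9, against 19.9% of all genes. The ratio was largest for HLA-B (log2 ratio 2.22), followed by TAPBP (2.02), HLA-C and ERAP1 (both 1.94), B2M (1.57), TAP2 (1.49) and HLA-E (1.07). TAP1 (0.35) did not reach 2-fold. NLRC5 had 0.78 with the pseudocount of 1 and 1.39 with one of 0.1, which put 8 of the 9 past 2-fold. At 0.60 TPM in 22RV1 shCON, NLRC5 passed the filter only through PC3. The member median was 1.57, and the median of all genes was −0.067.

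The same order of the cell lines held in the shDDX52 libraries, which share no library with the controls. All 9 members were again higher in PC3, and 8 of 9 were at least 2-fold higher. NLRC5 again passed the filter only through PC3. Of 15598 genes, 49.6% were higher and 21% at least 2-fold higher. HLA-B had a log2 ratio of 3.06, TAP2 of 2.77 and TAP1 of 0.58. Together the 9 genes held 0.0428% and 0.0320% of the TPM in 22RV1 and 0.132% and 0.151% in PC3, shCON first. The other protein-coding genes of the same stretch of chromosome 6, from 30489467 to 33314387, did not share this direction. Of 96 such genes, 35 were higher and 61 lower in PC3 shCON than in 22RV1 shCON, with a median of −0.29.

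The second comparison asked how the members differed with DDX52 knockdown within a cell line. In 22RV1, 8 members reached 1 TPM in either library, and NLRC5 did not. Of the 8, 6 were lower and 2 higher with shDDX52, where 58.8% of all 14438 genes were lower and 40.9% higher. None of the 8 was 2-fold apart in either direction. A 2-fold lower value was found for 2.86% of all genes and a 2-fold higher one for 2.24%, so 0 of 8 is not a result about the members. 

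B2M had the largest difference in 22RV1, from 248 to 157 TPM, a log2 ratio of −0.65 at percentile 6.57 of all genes. It was the only one of the 8 that was at least 1.5-fold lower, against 8.47% of all genes. TAP2 was next with −0.51, followed by HLA-E (−0.31), ERAP1 (−0.27) and HLA-C (−0.10). HLA-B differed least (−0.032), and centring on the all-gene median gave it 0.044, a change of sign. TAP1 (0.25) and TAPBP (0.14) were the 2 higher members. The member median was −0.18, against −0.076 over all genes.

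In PC3 all 9 members could be compared, and 8 were higher with shDDX52, where 46.3% of all 14262 genes were higher and 53.5% lower. None of the 9 reached a 2-fold difference, against 2.86% of all genes on the higher side and 3.44% on the lower. At least 1.5-fold higher were HLA-B, TAP2 and TAPBP, 3 of 9, against 8.95% of all genes. HLA-B went from 71.7 to 126 TPM (log2 ratio 0.80, percentile 95.5 of all genes), TAP2 from 50.3 to 86.5 TPM (0.77, percentile 95.02) and TAPBP from 46.7 to 73.4 TPM (0.64, percentile 92.6). ERAP1 had a log2 ratio of 0.50, TAP1 of 0.48, HLA-E of 0.33, HLA-C of 0.29 and NLRC5 of 0.11. B2M was the exception at −0.071, which turned to 0.059 once TPM were rescaled to nuclear protein-coding genes, a scaling that moved the median of all genes from −0.036 to 0.087. The member median was 0.48, or 0.61 with that scaling. Of the other protein-coding genes in the same stretch of chromosome 6, 34 of 91 were higher and 57 lower, with a median of −0.096.

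**Figure D3:**
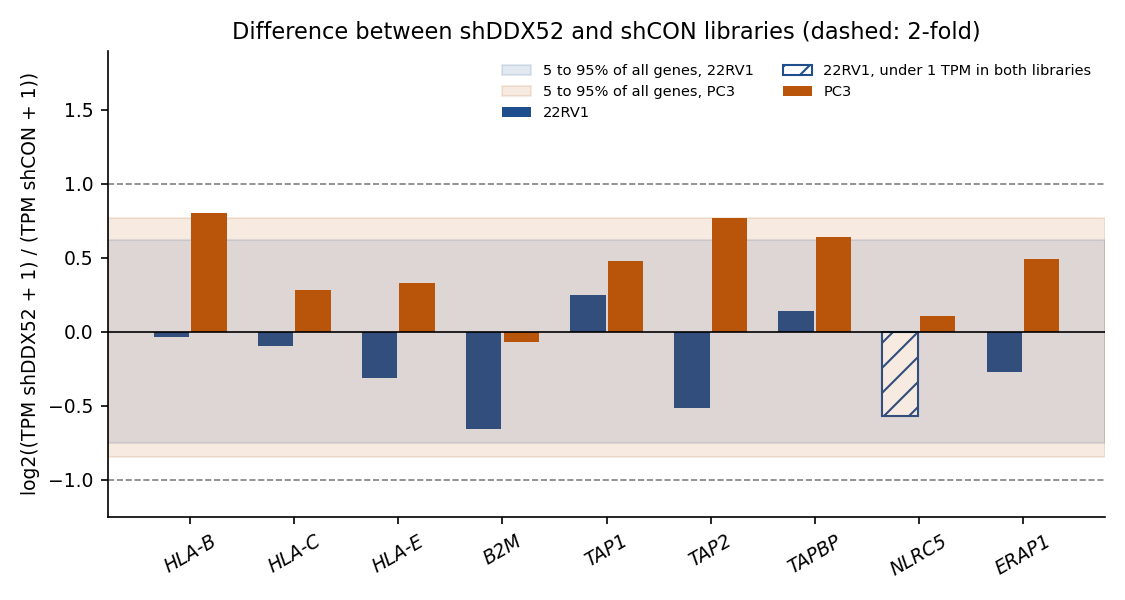
Log2 ratio of shDDX52 to shCON for each member in 22RV1 and in PC3, with dashed lines at a 2-fold difference and shaded bands from the 5 to the 95 percentile of all genes compared. In PC3 8 of 9 bars point up and HLA-B (0.80) and TAP2 (0.77) reach the edge of the band, whereas in 22RV1 B2M (−0.65) points furthest down among the 8 genes compared and the hatched NLRC5 bar rests on values under 1 TPM.

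The log2 ratio with shDDX52 was larger in PC3 than in 22RV1 for 8 of the 8 members compared in both, as for 53.5% of 12175 genes. The difference between the cell lines was widest for TAP2 (1.28) and narrowest for TAP1 (0.23). HLA-B, HLA-C, HLA-E, TAP2 and ERAP1 had opposite signs in the cell lines, TAP1 and TAPBP were above 0 in both, and B2M was below 0 in both on the deposited TPM. With 1 library a condition, these differences between the cell lines were not tested.

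Ratios within a library do not depend on how its total was scaled. HLA-B, HLA-C and HLA-E together gave 0.517 TPM for each TPM of B2M in 22RV1 shCON and 0.730 in 22RV1 shDDX52. In PC3 the ratio was 0.593 with shCON and 0.820 with shDDX52. The ratio was higher with shDDX52 in both cell lines. The heavy chain sum was 128 and 115 TPM in 22RV1 and 438 and 576 TPM in PC3. HLA-C held 55.7% to 63.3% of the summed heavy chains in each library, and the HLA-B share was 11.4% and 12.4% in 22RV1 and 16.4% and 21.8% in PC3. TAP1 and TAP2 were nearly equal in 22RV1 shCON (0.989 TPM of TAP1 for each TPM of TAP2), and this ratio was 1.74 after knockdown there. In PC3 it was 0.440 with shCON and 0.360 with shDDX52.

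The immunoproteasome subunits PSMB8, PSMB9 and PSMB10 replace PSMB5, PSMB6 and PSMB7 of the constitutive proteasome and alter which peptides are cut. PSMB8 was 0.07 TPM in 22RV1 shCON, listed at 0 in 22RV1 shDDX52, and 80.7 and 93.1 TPM in PC3. PSMB9 was 1.37 and 3.17 TPM in 22RV1 and 16.6 and 25.8 TPM in PC3, while PSMB10 was 57.4, 56.3, 51.5 and 31.6 TPM. PSMB8 therefore made up 23.1% and 27.5% of the summed PSMB8 and PSMB5 in the PC3 libraries. PSMB9 was 0.312% and 0.889% of PSMB9 and PSMB6 in 22RV1 and 4.57% and 9.06% in PC3. PSMB10 was 19.98% and 22.6% of PSMB10 and PSMB7 in 22RV1 and 14.7% and 10.8% in PC3, lower in PC3 and lower there with shDDX52, unlike the other two. The activator subunits PSME1 and PSME2 lay between 204 and 264 TPM in all 4 libraries. None of the 5 immunoproteasome and activator genes was 2-fold apart between shDDX52 and shCON on the log2(TPM + 1) scale, where PSMB9 in 22RV1 had 0.82 and a TPM fold of 2.31. Of all genes 2.24% to 3.44% were, by direction and cell line. The absence of a 2-fold gene from this or a later short list is therefore not a result about it. PSMB5, PSMB6 and PSMB7 were listed with PSME3, which is not one of the replaced subunits. All 4 were lower in 22RV1, and 3 of 4 were lower in PC3, against 58.8% and 53.5% of all genes. In PC3 the 3 lower ones were PSMB5, PSMB6 and PSMB7, with PSMB6 going from 347 to 258 TPM (−0.42). PSME3 went from 75.9 to 101 TPM there (0.40).

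**Figure D4:**
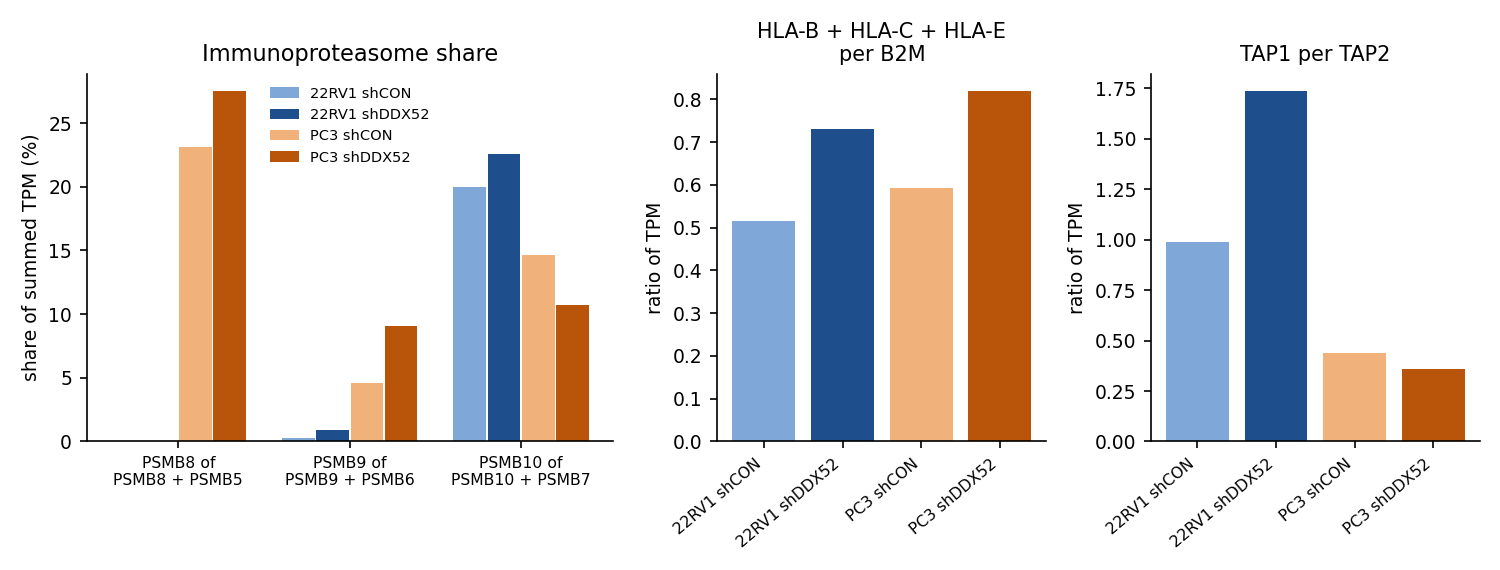
Left, share (%) of each immunoproteasome subunit in its sum with the constitutive counterpart in the 4 libraries. Middle and right, the summed TPM of HLA-B, HLA-C and HLA-E for each TPM of B2M, and TAP1 for each TPM of TAP2. The PSMB8 bars are 23.1% and 27.5% in PC3 and near 0 in 22RV1, and the heavy chain ratio is higher with shDDX52 in both cell lines.

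The chaperones and enzymes that fold and load class I molecules numbered 8, of which 7 reached 1 TPM in 22RV1. All 7 were lower there with shDDX52, where 58.8% of all genes were lower, with a median of −0.51 against −0.076 over all genes. None was 2-fold apart, where 2.24% of all genes were higher and 2.86% lower by that much. UGGT1, which senses misfolded glycoproteins, went from 7.71 to 3.88 TPM (−0.84), and the chaperone HSPA5 went from 414 to 235 TPM (−0.81). In PC3, 4 of 7 were higher and 3 lower, where 46.3% of all genes were higher and 53.5% lower. The list median there was 0.0033, against −0.036 over all genes. Of 7 cytosolic peptidases, which trim or destroy peptides before transport, 5 were lower in 22RV1 and 6 in PC3, against 58.8% and 53.5% of all genes. Among them BLMH had log2 ratios of −0.74 and −0.53, and NRDC of −0.40 and −0.49, with none 2-fold apart. Between the shCON libraries 3 of the 8 folding and loading genes were higher in PC3 and 5 lower, with a median of −0.21. Of the peptidases 3 were higher in PC3 and 4 lower (median −0.48), where 47.6% of all genes were higher. These lists therefore did not share the direction of the members between the shCON libraries. Between the shDDX52 libraries 6 of the 8 folding and loading genes were higher in PC3 and 2 lower (median 0.30). Of the peptidases 3 were higher there and 4 lower (median −0.76), where 49.6% of all genes were higher. In both pairs ERAP2 passed the filter only through PC3 and TAPBPL only through 22RV1.

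Of 16 transcription factors that act on class I promoters, 15 reached 1 TPM in each cell line and none was 2-fold apart with shDDX52. In 22RV1 10 were lower and 5 higher, and in PC3 8 were lower and 7 higher, shares near those of all genes (58.8% and 53.5% lower). RFX5, a DNA-binding factor among them, was 20.0 and 13.2 TPM in 22RV1 (−0.57) and 20.2 and 22.1 TPM in PC3 (0.12). IRF1, an activator of class I genes, was 1.74 and 2.26 TPM in 22RV1 and 36.6 and 28.5 TPM in PC3. In PC3 the IRF1 log2 ratio was −0.35, and the part of these factors in the class I values was not tested. Of 7 genes of polycomb repressive complex 2, 6 were lower in 22RV1 and 3 in PC3 beside the same shares of all genes, none 2-fold apart, with EZH2 at −0.49 in 22RV1 and JARID2 at 0.50 in PC3.

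Interferon receptors and their kinases carry the signal that induces class I genes. The list of 11 also held STAT2 and IRF9, which act in the nucleus, and SOCS1 and SOCS3, which inhibit the signal. Between the shCON libraries 10 were compared and all 10 were higher in PC3, against 47.6% of all genes. At least 2-fold higher were 7 of the 10, against 19.9% of all genes, namely IFNGR1, IFNGR2, JAK1, STAT2, IRF9, SOCS1 and SOCS3. SOCS1 and SOCS3, at 0 and 0.17 TPM in 22RV1 shCON, passed the filter only through PC3, which fixed their direction. JAK1 was 1.01 and 2.45 TPM in 22RV1 and 14.1 and 20.7 TPM in PC3. IFNGR1, a subunit of the interferon gamma receptor, was 4.22 and 3.70 TPM in 22RV1 and 18.3 and 10.9 TPM in PC3. None of this list was 2-fold apart with shDDX52 on the log2(TPM + 1) scale, although the JAK1 values in 22RV1 were 2.43-fold apart in TPM. Of 15 interferon-stimulated genes, 14 could be compared between the shCON libraries and 13 were higher in PC3, 11 of them at least 2-fold, beside the same shares of all genes. IFIT1, IFIT2, IFIT3, OAS1, OAS2, GBP1 and GBP2 were at most 0.19 TPM in 22RV1 shCON. They passed the filter only through PC3, which fixed their direction, so these counts are no result about them. With shDDX52 5 of 7 were lower in 22RV1 and 9 of 14 in PC3, with BST2 at −0.95 in 22RV1 and IFIT3 at −0.81 in PC3. Of all genes 58.8% were lower in 22RV1 and 53.5% in PC3. On TPM without the pseudocount, BST2 went from 8.75 to 4.06 in 22RV1 and IFIT3 from 3.32 to 1.47 in PC3.

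Class I-like molecules include ligands of the natural killer receptor NKG2D. Between the shCON libraries 9 of the 10 compared were higher in PC3, 8 of them at least 2-fold, against 47.6% and 19.9% of all genes. HLA-F, MICB, ULBP3, RAET1G and RAET1L lay between 0.19 and 0.94 TPM in 22RV1 shCON. They passed the filter only through PC3, which fixed their direction, so these counts are no result about them. MICB, such a ligand, was 0.94 and 1.46 TPM in 22RV1 and 16.4 and 32.8 TPM in PC3, and its log2 ratio with shDDX52 in PC3 was 0.96, short of 2-fold on this scale. ULBP2, another, went from 3.60 to 1.45 TPM in 22RV1 (−0.91). Of 6 genes that act on class I turnover, 1 was at least 2-fold higher with shDDX52 in PC3, namely the membrane ubiquitin ligase MARCHF4, from 0.83 to 3.65 TPM, where 2.86% of all genes were. MARCHF4 passed the filter in PC3 only through shDDX52, which fixed its direction. Between the shCON libraries 2 turnover genes were higher in PC3 and 3 lower, with a median of −0.45. Class II genes were low in all libraries: 2 of 8 reached 1 TPM within each cell line. HLA-DMA was 3.35 and 2.14 TPM in 22RV1 and 10.3 and 9.06 TPM in PC3. The other was HLA-DMB in 22RV1 (1.39 and 2.53 TPM) and CD74 in PC3 (0.79 and 1.14 TPM).

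The genes with the most similar pattern over the 4 libraries were sought, among 9158 genes outside the lists with a mean of at least 5 TPM, by the Euclidean distance of centred log2(TPM + 1) to the mean profile of the members. They were P4HA2 (distance 0.084), KLF10 (0.089), DCAF5 (0.099), SPTBN1 (0.11) and GSN (0.13). The members themselves lay between 0.35 (HLA-C) and 1.39 (TAP1) from their mean, so each of the 9 was further from it than these 5 genes. This likeness over 4 libraries is a description.

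Shared sequence limits some single values. For each member, the transcript with the longest coding sequence was cut into stretches of 50 bases, and 2.54% of those of HLA-B, 6.71% of HLA-C and 5.13% of HLA-E occurred in transcripts of another gene in GENCODE 29. For B2M, NLRC5 and ERAP1 the share was 0%, for TAP1 1.07% and for TAPBP 6.09%. For TAP2 it was 35.8%, and 32.3% of its exonic bases were also annotated to AL669918.1 on the same strand, so reads there could be given to either gene. TAP1 shared 9.49% of its exonic bases with PSMB8-AS1 on the opposite strand. HLA-B shared 17.8% with AL671883.2 on the opposite strand and 18.9% in all, the rest being with HLA-C on its own strand.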

How the data were processed

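RNA-seq libraries of 22RV1 and PC3 cells with shCON or shDDX52, 1 for each of 4 conditions, were prepared with an Illumina TruSeq kit. The authors used their sequencing provider's online platform, and the deposited TPM have at most 2 decimals, in a table for each cell line. The submitters' processing notes name CASAVA, HISAT2 and hg19, without roles, and the quantifier, annotation and filters are not given in the sources used here. TPM keeps no depth, so no count test, interval or p-value was made.

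Of 60671 identifiers, 42020 were paired with a symbol and 58453 were in GENCODE 29, which gave positions and gene types. Log2 ratios used a pseudocount of 1, which understates changes of low genes, and a filter of 1 TPM in one or both libraries. Members of each list were counted on this scale beside shares of all genes. The members and the 15 other lists were chosen with earlier results of these data known, and the list genes named were those at least 2-fold apart, else the 2 with the largest ratio, besides fixed regulators and immunoproteasome subunits. Some listed genes are not reported here by name. The motif GAANNGAAA was added after the sequences were seen. The arithmetic was tested on simulated data. Scripts ran in Python 3.11.15 with pandas 2.3.3, numpy 2.4.6 and, for plots, matplotlib 3.10.9.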

Additional observations from a re-analysis of the deposited data

Results flagged for a closer look

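The log2 ratio with shDDX52 had opposite signs in the 2 cell lines for 5 of the 8 members compared in both. The ratio in PC3 minus that in 22RV1 was 1.28 for TAP2, 0.83 for HLA-B, 0.77 for ERAP1, 0.64 for HLA-E and 0.38 for HLA-C. The HLA-B sign in 22RV1 depended on centring. With 1 library a condition, the difference between the cell lines was not tested.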

How the results depend on the processing

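The results were recomputed under 7 other settings, and 368 of 381 values neither changed sign, crossed the fold nor, for medians and counts, moved by over 1.5 times. Many of these values could not change. The other filters and the fold of 1.5 left each gene's ratio as it was, and summing identifiers left every value. The count of 368 is therefore no measure of robustness. No paired analysis was possible because there were no replicates to pair, and no library could be left out. In 22RV1 the member median of −0.18 moved to −0.096 with genes of at least 5 TPM, which leaves out ERAP1, and to −0.11 with centring on the all-gene median. With a fold of 1.5 in place of 2, the members past it were 1 lower in 22RV1 and 3 higher in PC3, against 0 in both. In PC3 the number of members below 0 went from 1 to 0 once TPM were rescaled to nuclear protein-coding genes, where B2M changed sign. HLA-B in 22RV1 changed sign with centring. Between the shCON libraries NLRC5 passed 2-fold with a pseudocount of 0.1. Summing identifiers changed nothing, since each symbol had 1. All members compared stayed higher in PC3 than in 22RV1 (9, or 8 with at least 5 TPM), and the PC3 median with shDDX52 stayed between 0.48 and 0.61, under each setting run. The depth behind these TPM is unknown, so low values such as those of NLRC5 have unknown precision.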
